A study of Homo sapiens with 8 samples.

Results

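The comparison described here sets MS177, a degrader of the histone methyltransferase EZH2, beside C24, an inhibitor of the catalytic activity of EZH2, in MM1.S cells. MM1.S is an established human plasma-cell line from multiple myeloma. It uses 4 of the 8 RNA-seq libraries of the series, the 2 labelled MS177 and the 2 labelled C24, taken by their labels alone. All 16295 listed genes entered, and the 14164 with enough reads were tested. Cells received 0.5 µM MS177, 0.5 µM C24, 0.5 µM of the related compound MS177N1 or the solvent DMSO, each for 24 h and in 2 libraries. The DMSO and MS177N1 libraries shared the fit and are quoted beside the main comparison. All groups are 1 cell line at 1 dose and 1 time, and the labels do not state whether replicates are separate cultures. The p-values therefore measure the spread between these libraries, which may be technical.

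EZH2 is the catalytic subunit of Polycomb repressive complex 2 (PRC2), which needs EED and SUZ12 and places methyl groups on lysine 27 of histone H3 at silent genes. A catalytic inhibitor leaves the EZH2 protein in the cell, whereas a degrader brings it to a ubiquitin ligase, here through the receptor CRBN, so that the whole protein is removed. CRBN is also the receptor of the immunomodulatory drugs used in myeloma, which make it bind transcription factors such as IKZF1 and IKZF3. The comparison at equal dose and time asks which transcripts differ between cells given the degrader and cells given the inhibitor. Only RNA was measured, so the amount of EZH2 protein and of histone methylation in these cells was not analysed here.

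Levels below are normalized reads (reads divided by the authors' size factor of the library), given for both libraries of a group. Differences are log2 differences of normalized reads plus 1, fitted by limma over all 8 libraries, with their standard error (SE). A gene is called at a Benjamini-Hochberg adjusted p under 0.05. The reads in listed genes numbered 20000665 and 22817519 in the MS177 libraries and 26619099 and 20444106 in the C24 libraries. On the first principal component, which held 63.6% of the variance, the MS177 libraries lay at 81.2 and 82.2 and the C24 libraries at -25.2 and -27.8, beside the DMSO and MS177N1 libraries, which lay between -28.1 and -27.3. Replicates of a group correlated at a Pearson r of 0.9848 to 0.9875 across tested genes, which are not independent replicates.

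MS177 and C24 gave very different transcriptomes. Of 14164 tested genes, 8233 (58.1%) were called between them, 4120 (29.1%) higher and 4113 (29%) lower with MS177. At least 2-fold differences were less balanced, with 1340 genes (9.46%) higher and 666 (4.7%) lower, and at 4-fold the counts were 474 (3.35%) and 123 (0.868%). The 2 libraries of MS177 lay wholly above or below the 2 of C24 for 11093 genes (78.3%). In contrast, C24 differed from DMSO in 13 genes (0.0918%) and from MS177N1 in 2 (0.0141%). MS177 differed from DMSO in 8207 (57.9%) and from MS177N1 in 8131 (57.4%). These comparisons share libraries with each other, so their counts are given side by side only. Among the 3 pairs of compounds, with p-values adjusted over the 3 pairs together, MS177 against C24 had 3885 genes higher and 3919 lower. At an unadjusted p under 0.05 the counts were 8790 for MS177 against C24, 762 for C24 against DMSO and 634 for C24 against MS177N1. The 2 calls between C24 and MS177N1 were DDIT4 (0.49, SE 0.05, limma adjusted p = 0.00136) and AMIGO3 (4.63, SE 0.60, limma adjusted p = 0.00767). In each gene both C24 libraries lay above both MS177N1 libraries. These calls were not kept in every fit with a library left out, where fewer libraries remained.

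**Figure D1:**
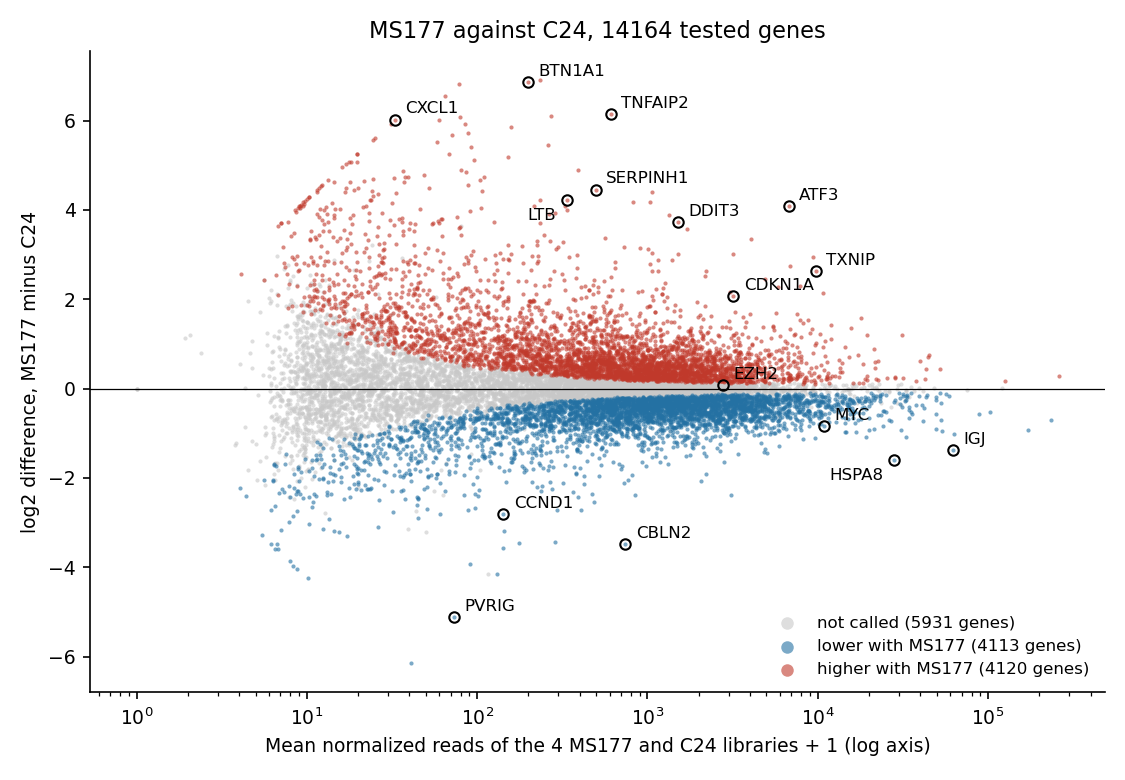
Each point is 1 of 14164 tested genes, with the mean normalized reads of the MS177 and C24 libraries plus 1 on a log x axis and the log2 difference (MS177 minus C24) on the y axis. Red points are the 4120 genes called higher with MS177, blue points the 4113 called lower and grey points were not called; ATF3 stands at 4.09 and EZH2 at 0.08.

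The direction of the difference went with the level of the gene. Among genes with a mean of at least 3000 normalized reads, 912 were lower and 354 higher with MS177, and the median difference was -0.20. Among genes under 30 normalized reads, 164 were lower and 442 higher, and the median was 0.30. A gene near 0 outside the MS177 libraries passed the filter on reads only if it rose with MS177. The excess of rises in this class is therefore partly fixed by the filter. It held 436 of the 1340 genes at least 2-fold higher and 163 of the 666 at least 2-fold lower. The share of genes called rose from 26.5% in that lowest class to 78.4% in the highest, while the median SE fell from 0.585 to 0.051. Genes at least 2-fold higher had a median GC content of 49% and those at least 2-fold lower 52.9%, in the transcripts of GENCODE v29, and removing the trend over length and GC content left 4035 genes higher and 4034 lower of 12567 with both values.

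Promoters of 2 groups of genes that were higher with MS177 are shown first, because short motifs of the factors named in their lists were searched there. ATF4 is the transcription factor of the integrated stress response, which cells switch on when amino acids run short or protein folding fails, and it binds TGATGNAA together with C/EBP partners. NF-kB, a family of dimeric factors of inflammation and survival signalling, binds a known motif of 10 letters that begins with several G and ends with CC. In the RefSeq promoters of GRCh38.p14 (250 bases before the start site to 50 after, both strands searched), TGATGNAA lay in 10 of 55 promoters of ATF4 list members (18.18%) against 1.97% of 14314 promoters of tested genes. That motif lay in 11 of 52 promoters of NF-kB list members (21.15%) against 0.57%. Promoters were matched for 34 of 51 tested ATF4 list members and 30 of 36 of the NF-kB list. A match is a run of letters and not a shown binding site, and many of these genes are known targets for which the lists were written.

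The 6 windows of 30 bases below lie before the start sites of ATF4 list members, on the strand of the gene, with the motif or its reverse complement in capitals. ATF3 was named by its response, and the other windows were chosen after their values were seen.
ATF3: aaaggtcaggaTGATGGAAggctgtcatat
CHAC1: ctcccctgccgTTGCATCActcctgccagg
ASNS: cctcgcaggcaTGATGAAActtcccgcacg
HERPUD1: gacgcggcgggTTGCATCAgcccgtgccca
CEBPG: cgcgcggcgtcTGATGCAAcctgccggcaa
SLC1A5: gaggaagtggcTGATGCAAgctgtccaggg
In GRCh38.p14 they are chr1:212565205-212565234 (ATF3, plus strand), chr15:40953251-40953280 (CHAC1, plus), chr7:97872458-97872487 (ASNS, minus), chr16:56931955-56931984 (HERPUD1, plus), chr19:33374060-33374089 (CEBPG, plus) and chr19:46784893-46784922 (SLC1A5, minus). The capitals begin 191 bases before the start site in ATF3 and 42 before it in CEBPG. All 6 genes were higher with MS177 than with C24, by 4.09 (ATF3), 3.03 (CHAC1), 1.67 (ASNS), 1.59 (HERPUD1), 1.18 (CEBPG) and 0.88 (SLC1A5). A match did not go with a call in every gene: SLC7A1, an arginine and lysine transporter, also held TGATGNAA and had 2938 and 3368 normalized reads with MS177 against 2842 and 2824 with C24 (0.15, SE 0.07, limma adjusted p = 0.0767).

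For the NF-kB list, 5 windows with the motif or its reverse complement in capitals are given in the same way, chosen among the 10 members with a match after their values were seen.
CXCL1: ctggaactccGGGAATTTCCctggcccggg
LTB: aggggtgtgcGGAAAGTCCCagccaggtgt
REL: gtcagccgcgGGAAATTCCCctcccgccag
NFKBIZ: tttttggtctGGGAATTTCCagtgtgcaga
TNFAIP3: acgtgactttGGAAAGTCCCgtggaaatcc
They lie at chr4:73869304-73869333 (CXCL1, plus), chr6:31582492-31582521 (LTB, minus), chr2:60881518-60881547 (REL, plus), chr3:101827757-101827786 (NFKBIZ, plus) and chr6:137867182-137867211 (TNFAIP3, plus). CXCL1 and NFKBIZ hold the same 10 letters, and LTB and TNFAIP3 share another version on the opposite strand. The log2 differences were 4.23 for LTB, 2.4 for REL, 2.03 for NFKBIZ and 1.16 for TNFAIP3, and CXCL1 had no read in either C24 library.

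EZH2 mRNA itself did not separate the degrader from the inhibitor at the threshold. It stood at 2819 and 2881 normalized reads with MS177 and 2713 and 2665 with C24. The groups did not overlap, which held for 78.3% of all tested genes. The difference was 0.08 (SE 0.05, limma adjusted p = 0.174) with a 95% interval from -0.02 to 0.19. Scaling by total reads moved it to 0.17 and past the threshold (adjusted p = 0.0102). Among the 14 PRC2 subunits and accessory proteins, all of them tested, 4 were higher and 7 lower with MS177, with a median difference of -0.16. Counts of list members, here and below, stand against 29.1% higher and 29% lower among all tested genes.

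The core partners of EZH2 were lower. EED, the subunit that reads the finished mark, stood at 522.9 and 534 with MS177 against 849 and 800.7 with C24 (-0.64, SE 0.08). SUZ12, the scaffold, stood at 3192 and 3252 against 4206 and 4018 (-0.35, SE 0.05). The histone-binding subunits RBBP4 (-0.54) and RBBP7 (-0.41) were lower too, and so was MTF2, a Polycomb-like DNA-binding protein (-0.34). EZH1, the paralog that can replace EZH2, went the other way, at 973 and 1088 with MS177 against 552 and 540.8 with C24 (0.91, SE 0.09). All these genes were called, with limma adjusted p between 1.03e-07 and 0.00863.

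The accessory subunits that define the variants of PRC2 split. PHF1, a Polycomb-like protein, was higher at 1009 and 909.1 against 426.2 and 431.3 (1.16, SE 0.09). C17orf96, the gene of the elongin-binding subunit EPOP, was lower at 324.7 and 316.1 against 989.4 and 1077 (-1.69, SE 0.08), the largest fall of the list. LCOR (0.87) and LCORL (0.68), whose loci encode the PALI subunits, were higher. JARID2, which brings PRC2 to chromatin, was lower by 0.26 on the log2 scale (SE 0.08, adjusted p = 0.0133). That call was lost under scaling by total reads (-0.18), without MS177 replicate 1 (-0.18) and without C24 replicate 2 (-0.16). For AEBP2 (0.18, adjusted p = 0.0619) and PHF19 (-0.06, adjusted p = 0.293) no difference was called, with intervals of 0.01 to 0.35 and -0.17 to 0.04.

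**Figure D2:**
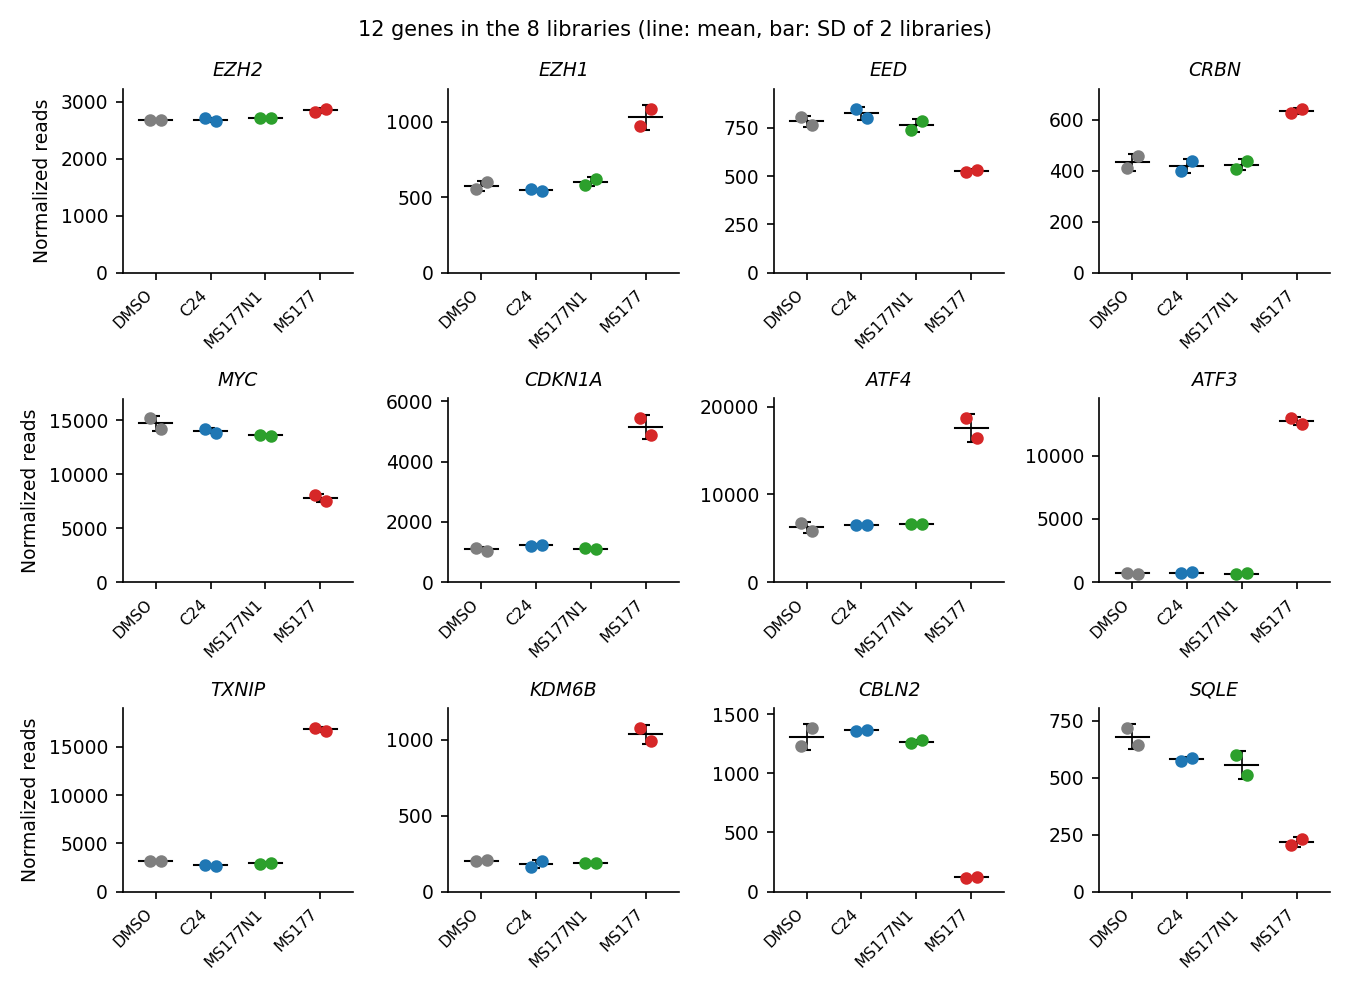
Normalized reads (y axis, from 0) of 12 genes in the 2 libraries of each of the 4 groups; points are libraries, the line is the mean and the bar the SD. The C24 libraries stand with DMSO and MS177N1 in each panel, and the MS177 libraries stand apart in every panel except EZH2, where they reach 2819 and 2881 against 2713 and 2665 with C24.

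PRC1, the complex that binds methylated lysine 27 and ubiquitinates histone H2A, had 8 of 23 subunits higher and 6 lower, near the background shares of 29.1% and 29%. PCGF2, a paralog of BMI1, had 212.2 and 202.9 normalized reads with MS177 against 72.75 and 34.29 with C24 (2.03, SE 0.29). RYBP, of the variant complexes, stood at 1883 and 1961 against 885.8 and 957.8 (1.06, SE 0.07). The lower members included CBX8 (-0.55) and KDM2B (-0.43).

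Genes that Polycomb is known to silence were called in both directions. Of 65 developmental regulators in the list, 28 were listed in the table and 19 had enough reads, and 3 of these were higher and 4 lower, both smaller shares than the 29.1% and 29% of all tested genes. The share called also depended on read level, from 26.5% of genes under 30 normalized reads to 78.4% in the highest class. The part of read level in these smaller shares was not tested. GATA3, a lymphoid and epithelial factor, rose from 10.27 and 8.848 with C24 to 94.3 and 132.8 with MS177 (3.42, SE 0.44), and WNT5A, a Wnt ligand, from 83.87 and 87.37 to 320.4 and 306.8 (1.86, SE 0.17). GATA3 passed the filter on reads only through the MS177 libraries, so its call is partly fixed by the filter. HOXB7 was higher by 0.96 (SE 0.16). GATA4, a heart and gut factor, fell from 168.6 and 134.9 to 81.44 and 69.21 (-1.0, SE 0.18), and TWIST1, LHX2 and TBX2 were lower too. The median of 0.21 turned to -0.22 with no filter on low counts and to -0.10 without C24 replicate 2.

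Of 36 genes described elsewhere as repressed by EZH2, 27 had enough reads, and 9 were higher and 7 lower (median 0.04, and -0.01 without C24 replicate 1), near the 29.1% and 29% of all tested genes. TXNIP, an arrestin that binds thioredoxin and limits glucose uptake, stood at 16990 and 16640 with MS177 against 2738 and 2704 with C24, 6.18-fold higher (2.63, SE 0.05, limma adjusted p = 2.5e-15). DKK1, a secreted Wnt inhibitor linked to myeloma bone disease, stood at 251.8 and 228.2 against 42.79 and 18.8 (3.03, SE 0.38). CXCL9, a chemokine, rose from 4.279 and 5.53 to 68.58 and 64.53 (3.52, SE 0.59), but it passed the filter on reads only through the MS177 libraries. In the other direction TNFRSF21, a death receptor, fell from 155.8 and 171.4 to 60.01 and 52.37 (-1.53, SE 0.17). KLF2, a quiescence factor, was not called at 1831 and 1666 against 1613 and 1643 (0.10, adjusted p = 0.238, interval -0.05 to 0.25), although it passed the threshold under scaling by total reads (0.19) and once the length and GC trend was removed (0.23).

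The mRNA of CRBN, and of several of its drug-induced substrates, was higher with MS177. CRBN stood at 623.7 and 642.5 with MS177 and at 398.8 and 438 with C24 (0.60, SE 0.10, limma adjusted p = 7.79e-05). IKZF1 stood at 4603 and 4761 against 3179 and 3181 (0.56, SE 0.05), and IKZF3 at 4606 and 5077 against 3677 and 3713 (0.39, SE 0.06). ZFP91 (0.26), the casein kinase gene CSNK1A1 (0.80) and ZNF827 (1.06) were higher too. In none of these did the MS177 and C24 libraries overlap, which held for 78.3% of all tested genes.

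Parts of the ligase moved the other way. RBX1, its RING subunit, fell from 2093 and 1943 with C24 to 1240 and 995.1 with MS177 (-0.86, SE 0.10), and DDB1, its adaptor, from 9772 and 10070 to 8805 and 9114 (-0.15, SE 0.04). DDB1 was not called under scaling by total reads (-0.06) or without C24 replicate 2 (-0.12). Not all drug-induced substrates were higher: GSPT1, a translation termination factor, was lower by 0.24 (SE 0.05). In the whole list 12 of 27 tested members were higher and 9 lower, against 29.1% and 29% of all tested genes; the 9 became 3 under scaling by total reads, 5 without C24 replicate 1 and 4 without C24 replicate 2. IKZF2, higher by 0.95 from 45.36 and 53.09, lost its call without C24 replicate 1 (0.84) or MS177 replicate 2 (0.76).

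MYC, the transcription factor of growth and metabolism on which myeloma cells depend, had 8086 and 7568 normalized reads with MS177 and 14210 and 13870 with C24 (-0.84, SE 0.05, limma adjusted p = 4.99e-10). Its level with C24 lay near that with DMSO (15200 and 14230). The MYC network, 16 genes tested, had 8 members higher and 2 lower, against 29.1% and 29% of all tested genes, and 4 lower without MS177 replicate 1 or once the length and GC trend was removed. The antagonist MXD1 rose from 247.3 and 267.6 to 716.9 and 749.1 (1.51, SE 0.11), and the paralog MYCN from 43.65 and 22.12 to 144.7 and 80.43 (1.76, SE 0.38). WDR5, a chromatin partner of MYC, was lower by 0.77 on the log2 scale (SE 0.06), while MAX, the obligate dimer partner, was not called (-0.04, interval -0.23 to 0.15).

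MYC targets fell nearly as a whole, with 63 of 67 tested members lower (background 29%) and 1 higher, at a median of -0.63. NME1, a nucleoside diphosphate kinase, fell from 7116 and 6914 with C24 to 2749 and 2541 with MS177 (-1.41, SE 0.05). TERT, the catalytic subunit of telomerase, fell from 101 and 113.9 to 48.22 and 28.99 (-1.49, SE 0.25), and the phosphatase gene DUSP2 from 391.1 and 459 to 175.7 and 145 (-1.40, SE 0.12). CACGTG, the E-box bound by MYC and MAX, which reads the same on both strands, lay in 31 of 73 promoters of list members (42.47%) against 9.42% of those of tested genes, NME1, TERT and DUSP2 among them. The same list had a median of 0.02 in C24 against DMSO.

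**Figure D3:**
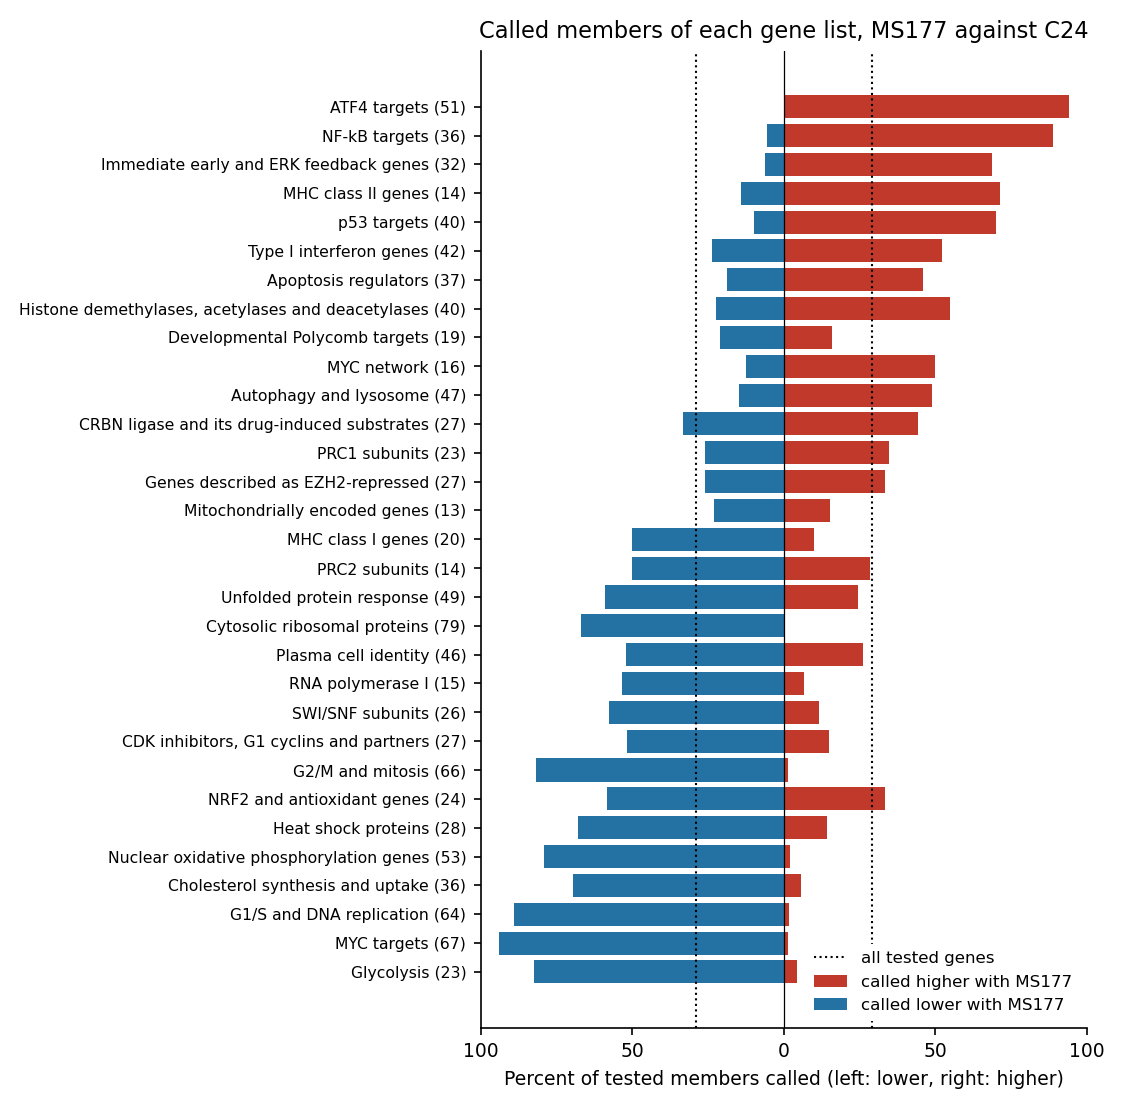
For each gene list with at least 13 tested members (number in brackets), red bars give the percent of tested members called higher and blue bars the percent called lower with MS177 against C24; dotted lines mark the 29.1% and 29% of all tested genes. ATF4 targets stand at the top and MYC targets and glycolysis at the bottom, by the order of their medians.

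ATF4 targets rose nearly as a whole. Of 51 tested members of the ATF4 list 48 were higher with MS177 (background 29.1%), the median was 1.48 and the lowest difference was 0.01. The mRNA of ATF4, which is also controlled at translation, stood at 18690 and 16450 with MS177 against 6517 and 6509 with C24 (1.43, SE 0.07). ATF3, a stress-induced repressor, stood at 12980 and 12540 against 723.2 and 777.5, 17.0-fold higher (4.09, SE 0.07, limma adjusted p = 1.77e-15). DDIT3, which encodes the death-promoting factor CHOP, stood at 2950 and 2702 against 217.4 and 206.8, 13.3-fold higher (3.73, SE 0.11).

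The rest of the ATF4 list covered feedback and supply. TSC22D3, also a glucocorticoid-induced gene, stood at 7559 and 7121 against 730 and 714.5 (3.34, SE 0.07). CHAC1, which degrades glutathione, stood at 2027 and 1783 against 235.4 and 227.8, and PPP1R15A, which restores translation, at 12140 and 11780 against 1832 and 1746 (2.74, SE 0.06). TRIB3, a pseudokinase that binds ATF4, was higher by 2.46 (SE 0.06). ASNS, which makes asparagine, stood at 5846 and 6266 against 1940 and 1871 (1.67, SE 0.06). The serine synthesis genes PHGDH (1.61), PSAT1 (1.39) and PSPH (1.62) and the transfer-RNA synthetase genes GARS (1.48), AARS (1.37) and WARS (1.30) were higher as well. The 3 members that were not called were ATF5 (0.01, interval -0.19 to 0.20), SLC7A1 and STC2, which had few reads (26.79 and 11.22 against 6.847 and 13.27).

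The unfolded protein response, which plasma cells use to fold immunoglobulin, had members called in both directions. Of its 49 tested members 12 were higher and 29 lower, against 29.1% and 29% of all tested genes, with a median of -0.19. The sensor gene ERN1, whose product splices XBP1 mRNA, stood at 13020 and 12990 against 4510 and 4393 (1.55, SE 0.05), and XBP1 at 34810 and 33580 against 28980 and 28870 (0.24, SE 0.04). The endoplasmic reticulum chaperone HSP90B1 fell from 38790 and 39610 to 28880 and 30000 (-0.41, SE 0.04), and HSPA5, another, by 0.11 on the log2 scale (SE 0.04). FKBP11, a prolyl isomerase of secretory cells, fell from 2456 and 2524 to 896.9 and 857.6 (-1.50, SE 0.07), and SDF2L1, a partner of HSPA5, from 1973 and 2065 to 887.3 and 760.4 (-1.30, SE 0.08).

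In the list of heat shock proteins and their partners, which also holds mitochondrial members and a collagen chaperone, 19 of 28 were lower and 4 higher (median -0.39). HSPA8, the constitutive chaperone, fell from 41990 and 41890 with C24 to 13320 and 14630 with MS177 (-1.59, SE 0.04). SERPINH1, the collagen chaperone, rose from 46.22 and 38.71 to 961.2 and 935.3, 22.3-fold (4.45, SE 0.22). HSPA1A, which has a near-identical copy and is uncertain, was higher at 350.4 and 374.1 against 108.7 and 147.1 (1.51, SE 0.17).

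p53 targets were mostly higher, 28 of 40 with 4 lower (median 0.57). p53 halts the cell cycle or triggers death after damage, and several of its targets are also ATF4 targets. CDKN1A, the cell-cycle inhibitor p21, stood at 5446 and 4877 with MS177 against 1207 and 1245 with C24, 4.21-fold higher (2.07, SE 0.07). SESN2, which restrains mTORC1, stood at 5505 and 5801 against 713.8 and 686.8 (3.01, SE 0.07), and BBC3, the death activator PUMA, at 2559 and 2331 against 315 and 348.4 (2.88, SE 0.10). KITLG, a growth factor gene, rose from 36.8 and 19.91 to 216.5 and 229.1 (2.99, SE 0.45).

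In the list of apoptosis regulators 17 of 37 were higher and 7 lower (median 0.29). Among death activators, BMF stood at 9512 and 9888 against 1986 and 2038 (2.27, SE 0.05), PMAIP1, which encodes NOXA, at 746.9 and 732.3 against 205.4 and 248.8 (1.71, SE 0.12) and BCL2L11, which encodes BIM, was higher by 0.55 (SE 0.06). Of the anti-apoptotic genes, MCL1 stood at 18530 and 19260 against 9732 and 10190 (0.92, SE 0.04), and BCL2 at 4795 and 5133 against 2774 and 2832 (0.82, SE 0.05); the direction of the others was not counted.

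Cell-cycle genes were lower with MS177. For G1/S and DNA replication 57 of 64 members were lower and 1 higher (median -0.56), and for G2/M and mitosis 54 of 66 and 1 (median -0.34); these single higher members were not called in some of the fits with a library left out. UHRF1, which keeps DNA methylation through replication, fell from 5097 and 4857 with C24 to 1885 and 1701 with MS177 (-1.47, SE 0.06), and CCNE1, cyclin E1, from 861.8 and 841.7 to 371.8 and 345.1 (-1.25, SE 0.10). UBE2C, an enzyme of mitotic exit, fell from 2386 and 2282 to 1217 and 970.8 (-1.10, SE 0.09). CCND1, cyclin D1, fell from 260.2 and 236.7 to 31.08 and 38.35 (-2.81, SE 0.17), while the repressor E2F7 rose from 1004 and 1092 to 2484 and 2569 (1.27, SE 0.07).

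In the list of kinase inhibitors, G1 cyclins and their partners 4 of 27 were higher and 14 lower (median -0.24). CDKN1B, p27, was bounded close to equality at 4576 and 4678 against 4608 and 4522 (0.02, interval -0.08 to 0.12). CDKN1C, p57, stood at 359 and 293.7 against 293.6 and 341.7, where the groups overlapped (0.04, interval -0.24 to 0.32), and its sign turned without MS177 replicate 1 or C24 replicate 1. CDKN2A was listed but had too few reads to test. Over all genes, the 95% interval of the difference lay within 0.322 of equality on the log2 scale for 2107 (14.9%), so for most of the 5931 genes that were not called the data do not show near-equality.

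NF-kB targets were mostly higher, 32 of 36 tested members with 2 lower (median 1.04). At least CXCL1 passed the filter on reads only through the MS177 libraries, so this count is partly fixed by the filter. TNFAIP2, a cytoskeletal protein, stood at 1200 and 1195 with MS177 against 11.98 and 21.01 with C24 (6.15, SE 1.24, limma adjusted p = 0.00996), and lost its call without C24 replicate 1 (5.77, adjusted p = 0.0552). UBD, a ubiquitin-like modifier, stood at 543.3 and 477 against 9.414 and 12.17 (5.44, SE 0.44). CXCL1, a chemokine, had 64.3 and 63.6 normalized reads with MS177 and no read in the C24 or DMSO libraries, so it was at least 44.2-fold higher against the limit of 3 reads over both C24 libraries. CXCL8, another chemokine, had 28.93 and 31.8 against no read with C24, at least 21.0-fold higher.

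Signal carriers of the pathway rose with its outputs. LTB, a lymphotoxin subunit, stood at 674 and 602.3 against 31.67 and 34.29 (4.23, SE 0.24), and TRAF1, an adaptor, at 516.5 and 528.4 against 59.91 and 58.62 (3.12, SE 0.23). The subunit gene REL stood at 305.4 and 341.4 against 66.76 and 54.19 (2.4, SE 0.23), with smaller rises of NFKB1 (0.54) and NFKB2 (0.26). The inhibitors TNFAIP3, at 10910 and 11240 against 5016 and 4876 (1.16, SE 0.04), and NFKBIA (0.70) rose as well. The lower members were SOD2, the mitochondrial superoxide dismutase (-0.41, SE 0.06), and the chemokine gene CXCL10 (-0.42, SE 0.13), named because they were the exceptions. Once the length and GC trend was removed, the count of lower members was 0, and it was 1 without MS177 replicate 1 or C24 replicate 2.

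Immediate early genes and phosphatases that damp ERK and stress kinases were mostly higher, 22 of 32 with 2 lower (median 0.77). JUN, a subunit of AP-1, stood at 17300 and 15790 against 2145 and 2173, 7.66-fold higher (2.94, SE 0.06). DUSP8, a phosphatase of stress kinases, stood at 1626 and 1472 against 73.6 and 96.22, 18.2-fold higher (4.18, SE 0.17), and DUSP10 at 391.1 and 419.9 against 49.64 and 51.98 (2.97, SE 0.24).

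**Figure D4:**
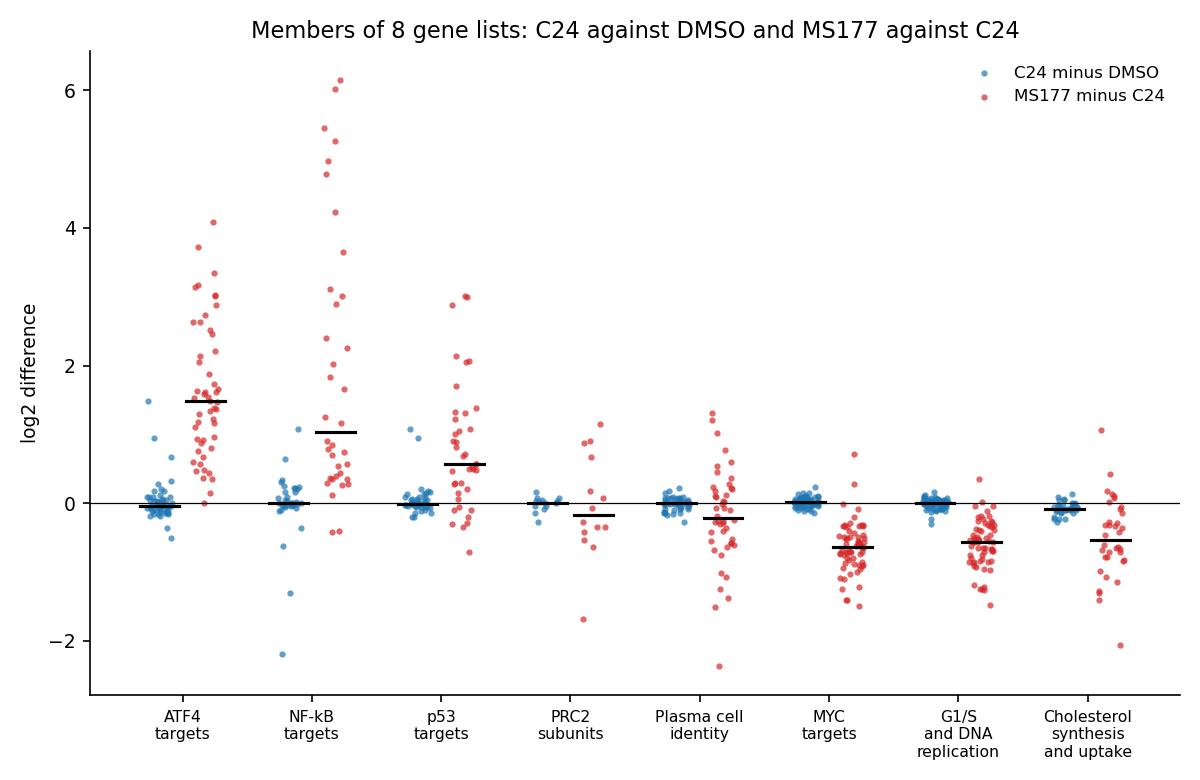
Log2 differences (y axis) of the tested members of 8 gene lists, for C24 minus DMSO in blue and MS177 minus C24 in red; each point is a gene and black lines are medians. The red medians of the ATF4, NF-kB and p53 lists stand at 1.48, 1.04 and 0.57 and that of MYC targets at -0.63, while the blue points lie close to 0 apart from a few; both differences share the C24 libraries.

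Interferon genes split, with 22 of 42 higher and 10 lower (median 0.49; 6 lower under scaling by total reads or without C24 replicate 1). IFIT3, an antiviral effector, rose from 28.24 and 28.76 with C24 to 276.5 and 273.1 with MS177 (3.22, SE 0.26), and OAS3, which senses double-stranded RNA, from 303.8 and 344 to 922.7 and 965.2 (1.54, SE 0.11). XAF1 rose from 9.414 and no read to 174.7 and 164.6 (5.72, SE 1.01).

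Antigen presentation genes are given by class, with no test between the classes. The HLA genes are a multigene family whose reads can be shared, so their values are uncertain. For MHC class II 10 of 14 were higher and 2 lower (median 0.66; 1 lower without C24 replicate 1), against 29.1% and 29% of all tested genes. CIITA, the master activator of class II, stood at 1111 and 1135 with MS177 against 516.9 and 550.8 with C24 (1.07, SE 0.08), HLA-DRA at 15430 and 14540 against 7231 and 7162 (1.06, SE 0.04) and HLA-DMB, a peptide loader, at 364.3 and 340.4 against 145.5 and 161.5 (1.19, SE 0.16). CD74, the invariant chain, was higher by 0.21 (SE 0.06). For MHC class I 2 of 20 were higher and 10 lower (median -0.12), with HLA-F at 1691 and 1474 against 786.5 and 845 (0.95, SE 0.08) and PSME2, a proteasome activator, at 1961 and 1763 against 2868 and 3124 (-0.69, SE 0.07). The 2 higher became 4 without MS177 replicate 2 or once the length and GC trend was removed, and 1 without MS177 replicate 1 or C24 replicate 1.

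Biosynthetic and energy genes were lower. For cholesterol synthesis and uptake 25 of 36 were lower and 2 higher (median -0.53). SQLE, which makes squalene epoxide, fell from 573.4 and 586.2 with C24 to 203.6 and 232.9 with MS177 (-1.41, SE 0.11). Without MS177 replicate 1 the list had 1 member higher. For glycolysis 19 of 23 were lower and 1 higher (median -0.66). LDHA, lactate dehydrogenase, fell from 41150 and 39840 to 21170 and 21750 (-0.92, SE 0.04), and SLC16A1, a lactate carrier, from 2899 and 2925 to 1499 and 1619 (-0.90, SE 0.06). The exception was the glucose transporter gene SLC2A3, at 626.9 and 653.7 against 338.1 and 296.4 (1.01, SE 0.11).

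Nuclear genes of oxidative phosphorylation were lower in 42 of 53 and higher in 1 (median -0.44). NDUFS8, of complex I, fell from 2930 and 3068 with C24 to 1346 and 1107 with MS177 (-1.30, SE 0.08). Cytosolic ribosomal proteins were lower in 53 of 79, with a median of -0.20 and a highest difference of 0.04. That median was also the median of all genes with at least 3000 normalized reads (-0.20), of which 912 of 1615 were lower. RPS16 fell from 42670 and 41900 to 33910 and 32220 (-0.36, SE 0.04). Ribosomal protein genes have many processed copies, which makes single values uncertain, and their count was sensitive: 31 lower and 3 higher under scaling by total reads, 25 and 6 once the length and GC trend was removed, and 35 lower without C24 replicate 1. RPL41 (-0.37) lost its call after removal of that trend (-0.09), without MS177 replicate 2 (-0.25) and without C24 replicate 1 (-0.30), and RPS26 (-0.48) lost it without MS177 replicate 2 (-0.38). For RNA polymerase I, which makes ribosomal RNA, 8 of 15 were lower and 1 higher (median -0.22), among them UBTF, its upstream factor, from 5467 and 5657 to 3012 and 3151 (-0.85, SE 0.05).

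Antioxidant genes under NRF2 were lower in 14 of 24 and higher in 8 (median -0.36), against 29% and 29.1% of all tested genes. SLC7A11, the cystine transporter, was among the higher ones at 1036 and 1285 against 262.7 and 234.5 (2.21, SE 0.13), and PRDX1, a peroxiredoxin, among the lower ones at 5825 and 5279 against 10770 and 10170 (-0.92, SE 0.05). Autophagy and lysosome genes were higher in 23 of 47 and lower in 7 (median 0.15). TFE3, a driver of lysosome genes, stood at 3011 and 2884 against 1268 and 1322 (1.19, SE 0.06), and GABARAPL1, which coats autophagosomes, at 561.5 and 572.4 against 236.2 and 191.3 (1.41, SE 0.14).

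Other chromatin regulators differed as well. Among histone demethylases, acetylases and deacetylases 22 of 40 were higher and 9 lower (median 0.26). KDM6B, which removes the mark that EZH2 places, stood at 1081 and 993.2 with MS177 against 164.3 and 200.2 with C24, 5.69-fold higher (2.51, SE 0.12), and KDM6A, its paralog, at 916.2 and 1022 against 618.8 and 663.6 (0.59, SE 0.09). HDAC9 stood at 3041 and 3767 against 931.2 and 958.9 (1.84, SE 0.09), and HDAC1 fell from 3390 and 3370 to 2136 and 2105 (-0.67, SE 0.05). Of SWI/SNF remodelling subunits 15 of 26 were lower and 3 higher (median -0.23; 5 higher under scaling by total reads, 1 once the length and GC trend was removed or without C24 replicate 2), with ACTL6A from 4106 and 4078 to 2408 and 2187 (-0.83, SE 0.06) and DPF3 from 386.8 and 426.9 to 116.8 and 126.3 (-1.73, SE 0.13).

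Markers of the plasma cell were present in all libraries and lower with MS177. Of 9 tested plasma-cell markers 7 were lower and 1 higher, and their summed normalized reads were 124143.5 and 121980.1 with MS177, 198262.3 and 199881.7 with C24, and 194902.2 to 198092.7 in the other 4 libraries. IGJ, the J chain of secreted antibody, fell from 87680 and 91020 with C24 to 34600 and 34220 with MS177 (-1.38, SE 0.03). SDC1, the syndecan CD138, fell from 26560 and 25860 to 12570 and 12280 (-1.08, SE 0.04), and TNFRSF17, the survival receptor BCMA, from 4064 and 4072 to 2070 and 1951 (-1.02, SE 0.05). IRF4, on which plasma cells depend, fell by 0.24 on the log2 scale (SE 0.04) and PRDM1 by 0.26 (SE 0.05). CD38 was not called (0.04, interval -0.13 to 0.21). In RNA from a whole culture, fewer cells with a feature and less RNA per cell cannot be told apart.

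The wider plasma-cell identity list had 24 of 46 lower and 12 higher (median -0.21), against 29% and 29.1% of all tested genes, with the lowest value in ITGA6, an integrin, which fell from 811.3 and 760.9 to 145.7 and 158.1 (-2.36, SE 0.09). Markers of other cell types were few. Of the B cell markers CR2, the complement receptor, fell from 454.5 and 455.7 to 100.7 and 90.72 (-2.24, SE 0.12) and CD79B from 829.3 and 798.5 to 522.9 and 546.2 (-0.61, SE 0.08), while CD79A had 20.36 and 24.32 reads against 23.11 and 21.01. Of 2 tested T and NK cell markers 1 was lower: CD3E, of the T cell receptor, fell from 62.48 and 73 to 33.22 and 29.93 (-1.07, SE 0.27). Of 4 tested stromal and epithelial markers 1 was higher and 1 lower, of 2 endothelial markers likewise, and the 1 erythroid marker with enough reads was not called. The lower stromal and epithelial call and the higher endothelial call were not kept in every fit with a library left out.

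Of 10 monocyte and granulocyte markers 7 were listed, and the 5 with enough reads were higher with MS177. AIF1 and CD163 passed the filter on reads only through the MS177 libraries, so that count is partly fixed by the filter. The summed reads of that list were 1789.6 and 1664.7 with MS177 against 314.8 to 390.3 in the other 6 libraries. Most of the sum was CD68, a lysosomal membrane protein, at 1585 and 1471 against 336.3 and 330.7 with C24 (2.19, SE 0.11). AIF1 rose from no read in either C24 library to 51.44 and 42.09, and CD163 from no read to 24.65 and 24.32; ITGAM stood at 61.08 and 72.95 against 9.414 and 7.742 (2.83, SE 0.46) and S100A9 at 57.87 and 40.22 against 24.82 and 6.636 (1.81, SE 0.57). CD14 and CSF1R were listed with too few reads to test. The part of these markers in the other results was not tested.

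The largest rises and falls are given among called genes with a read in each of the 4 libraries and a mean of at least 100 normalized reads in the higher group, which leaves out CXCL1 and XAF1. The rises began near 0 with C24. BTN1A1, a butyrophilin, had 365.4 and 419.9 normalized reads with MS177 against 2.568 and 2.212 (6.86, SE 0.52), and TMEM132A, a transmembrane protein, 512.2 and 413.4 against 1.712 and 4.424 (6.91, SE 0.66). LGALS3BP, a secreted galectin ligand, had 550.8 and 518.1 against 5.135 and 8.848 (6.11, SE 0.47). PIPOX, RCAN2, SPNS3, SH3RF2 and SYNPO2L, which with TNFAIP2 and UBD complete the 10 largest rises under these limits, had 95.37 to 322.6 with MS177 and at most 5.53 with C24. In all, 112 genes called higher had 3 reads or fewer in each C24 library, and 15 of these averaged at least 50 normalized reads with MS177. In the other direction, 41 genes called lower had 3 reads or fewer in each MS177 library. Genes near 0 outside the MS177 libraries passed the filter on reads only by rising with MS177, so the larger count of rises is partly fixed by the filter.

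The largest falls under the same limits began from higher levels. CBLN2, a synapse organizer, fell from 1360 and 1365 with C24 to 117.9 and 123.5 with MS177 (-3.49, SE 0.08). PIK3AP1, the B cell adaptor of phosphoinositide 3-kinase, fell from 306.4 and 339.5 to 28.93 and 28.06 (-3.46, SE 0.15), and SSBP4, a partner of LIM-domain factors, from 469.9 and 571.8 to 54.65 and 40.22 (-3.44, SE 0.14). ABHD6, a lipase, fell from 141.2 and 196.9 to 9.644 and 10.29 (-3.94, SE 0.24). LRFN3 (-3.57), GREB1 (-3.19), UTS2R (-2.80) and C11orf95 (-4.16) were lower too, the MS177 libraries of C11orf95 lying apart at 26.79 and 5.612. PVRIG, an inhibitory receptor, had the lowest value among these (-5.11, SE 0.27) but has a near-identical copy and is uncertain.

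C24 alone changed little. The 13 genes called against DMSO (0.0918%) were 3 higher (0.0212%) and 10 lower (0.0706%), and of 1057 distinct list genes tested 10 were called, DDIT4 and 9 mitochondrially encoded genes. DDIT4, an inhibitor of mTORC1 induced by ATF4 and other stress signals, had its lowest values with DMSO and its highest with MS177. It stood at 2589 and 2528 with DMSO, 2879 and 2940 with MS177N1, 3968 and 4181 with C24 and 12190 and 11330 with MS177. C24 lay above DMSO by 0.67 (SE 0.05, limma adjusted p = 1.59e-05), MS177 above C24 by 1.53 (SE 0.05), and DDIT4 was also called in C24 against MS177N1. BHLHE40, a stress- and clock-linked repressor, stood at 545.9 and 492.2 with DMSO, 633.7 and 673 with MS177N1, 762.6 and 784.1 with C24 and 1320 and 1297 with MS177 (0.58 for C24 against DMSO and 0.76 for MS177 against C24).

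Most mitochondrially encoded messenger RNAs were lower with C24, and with MS177, than with DMSO. In C24 against DMSO 9 of 13 were called lower (background 0.0706%), with a median of -0.47, and in MS177 against DMSO 10 of 13 (background 29%), with a median of -0.51; both share the DMSO libraries. MT-ND1, of complex I, stood at 25960 and 25000 with DMSO, 17890 and 17160 with C24 and 20250 and 22100 with MS177. MT-CO2, of complex IV, stood at 47810 and 46910, 35050 and 35000, and 35050 and 36550 in the same order. Between MS177 and C24 the median was -0.05 with 2 members higher and 3 lower. The 2 became 4 under scaling by total reads and 1 without MS177 replicate 2 or either C24 replicate, and once the length and GC trend was removed 5 were higher and 0 lower. As reported, 7 of the 13 had an interval within 0.322 of equality. That median turned to 0.04 under scaling by total reads, 0.19 once the length and GC trend was removed and 0.02 without C24 replicate 1. With MS177N1 the summed reads of the list were 370278.6 and 390846.5, between DMSO (477724 and 467876.3) and C24 (339866.6 and 332044.9); MS177 stood at 329408.8 and 360006.1. These genes have nuclear copies, which makes single values uncertain, and a difference in mitochondrial content and one in RNA per mitochondrion cannot be told apart.

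**Figure D5:**
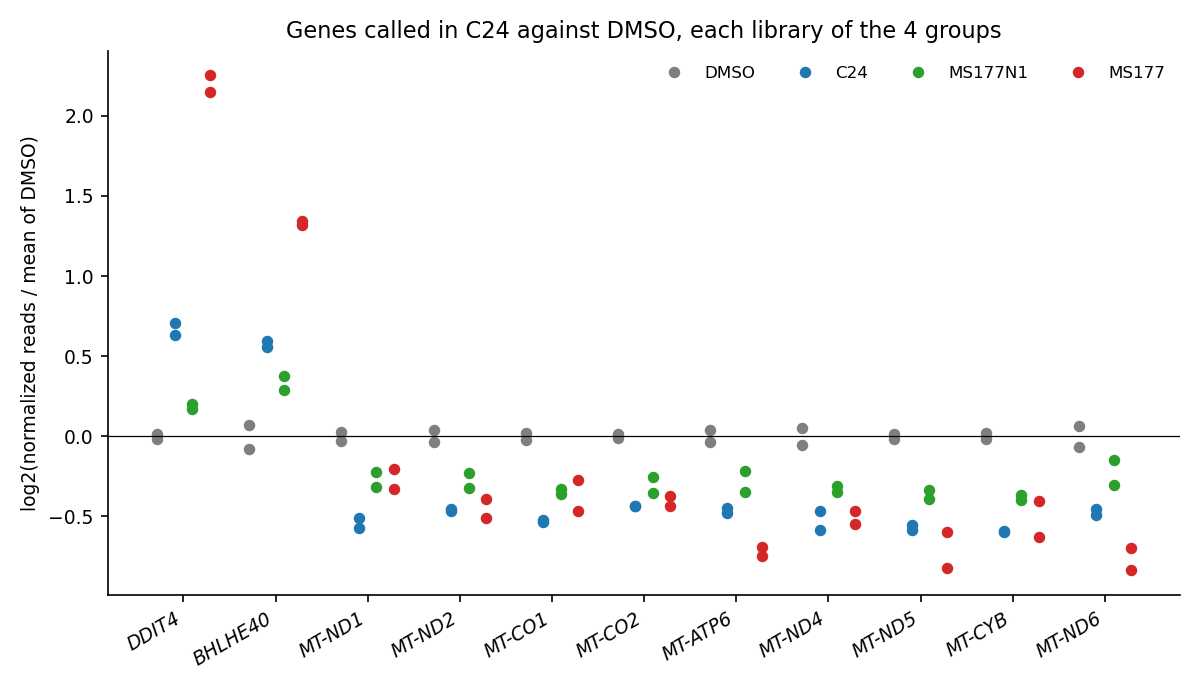
Log2 ratio (y axis) of the normalized reads of each library to the mean of the DMSO libraries, for DDIT4, BHLHE40 and 9 mitochondrially encoded genes called in C24 against DMSO; points are libraries, coloured by group. DDIT4 and BHLHE40 stand higher with C24 and highest with MS177, whereas the mitochondrial genes lie below 0 with all 3 compounds; of these 9, MT-ND1 and MT-CO1 were called higher and MT-ATP6, MT-ND5 and MT-ND6 lower with MS177 than with C24.

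The other calls of C24 rest on few reads or on uncertain rows. PLA2G4B had no read with DMSO, 18.83 and 32.07 with C24 and 10.72 and 5.612 with MS177, and it overlaps the readthrough gene JMJD7-PLA2G4B. RP5-857K21.6, a row named after a clone, was lower with C24 than with DMSO by 0.59 on the log2 scale (SE 0.07). AMIGO3, called in C24 against MS177N1, had 22.25 and 25.44 reads with C24 and none with MS177N1, and it overlaps GMPPB.

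C24 stayed near DMSO also where MS177 moved most. For the 1340 genes at least 2-fold higher with MS177 than with C24, the median of C24 minus DMSO was -0.03, with the 5th and 95th percentiles at -0.94 and 0.68, and the median of MS177 minus DMSO was 1.56. For the 666 genes at least 2-fold lower these medians were 0.05 and -1.34. The 3 differences share libraries, so these medians are a description.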

How the data were processed

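RNA of MM1.S cells was sequenced from 8 libraries, 2 per group, prepared by a NEBNext Ultra II protocol, per the labels' protocols. The submitters' processing notes name STAR 2.4.2, Salmon 0.1.19, DESeq2 1.38.2 and hg19, with no role given. The authors deposited 1 table of log2 values for 16295 genes, in the form of a variance-stabilizing transformation. Whole reads and size factors could be recovered from it: all 130360 values came out whole within 0.01 reads, 20000665 to 26619099 reads per library. In 21 rows the gene name has the form of a date.

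The analysis used log2(normalized reads + 1), where a fold change understates low genes, and not a count model. A gene was kept if 2 or more libraries held 10 reads, scaled to the median library, and all 8 held 15 in sum (14164; 2131 left out). limma 3.58.1 (R 4.3.3, statmod 1.5.0) with trend and robust settings fitted all 8 libraries as 4 groups with 4 residual degrees of freedom, and p-values were adjusted by Benjamini-Hochberg over all tested genes. The procedure was tested on 3 simulated data sets with 200 changed genes each. That is far fewer than were called between MS177 and C24, so the simulation does not cover a change of this breadth. Intervals are at 95%, and limits for genes with no read use 3 counts over the group and cover counting error only.

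Named genes were a fixed panel, up to 3 called members of each list with the largest difference and a mean of at least 50 normalized reads in either group, the 10 largest rises and falls among called genes with a mean of at least 100 normalized reads in the higher group and a read in each of the 4 libraries, and every gene called for C24; other names were chosen after their values were seen. A few genes that this rule names are not reported here. The members and gene lists were chosen with earlier results of these data known. Alternatives were other scalings, filters, pseudocounts, weights and adjustments, the deposited log2 values, a correction for transcript length and GC, a replicate block and leaving out each library. Promoters come from RefSeq (GRCh38.p14). Figures were drawn with matplotlib 3.10.9.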

Additional observations from a re-analysis of the deposited data

How the results depend on the processing

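With 2 libraries a group the spread is poorly known, and low genes have wide errors (median SE 0.585 under 30 normalized reads). Leaving out each library in turn, where the lone library of a group is assumed to vary like the other groups, gave 6800 to 7782 genes called between MS177 and C24 (8233 reported), 3350 to 3808 higher, 3450 to 3974 lower and 720 to 793 list genes called (813 reported, of 1057 tested). The same gave 7293 to 7745 for MS177 against DMSO, 6661 to 7640 for MS177 against MS177N1, 10 to 13 for C24 against DMSO, and 0 to 2 for C24 against MS177N1, which had 634 genes at an unadjusted p under 0.05 and 2 calls by limma with voom weights. C24 against MS177N1 had 1 call with a pseudocount of 4, 4 once the length and GC trend was removed and 209 with the adjustment over 3 comparisons together, in which the calls of MS177 ease the threshold. Genes whose interval lay within 0.322 of equality numbered 3457 on the deposited log2 values, whose scale shrinks low genes, and 1421 to 1949 with a library left out. Same-numbered libraries did not deviate together (correlations of -0.062 to 0.06). That gave no sign of pairing by number but cannot show that there was none. A replicate block gave 8359 calls between MS177 and C24 (4162 higher, 4197 lower, 833 list genes, 2192 within 0.322 of equality). It gave 8299 for MS177 against DMSO, 8279 for MS177 against MS177N1, 20 for C24 against DMSO and 2 for C24 against MS177N1. Scaling by total reads moved the median difference of all genes from 0.006 to 0.091 and gave 4796 higher and 3438 lower. Signs turned for MT-ND2 (0.01 reported; 0.0 with upper-quartile scaling, -0.049 to 0.067 with a library left out), MT-ATP6 (-0.26; 0.001 once the length and GC trend was removed), CDKN1C (0.04; -0.109 to 0.18, -0.074 without C24 replicate 1), MT-ND4 (0.02; -0.042 to 0.076, -0.024 without MS177 replicate 2) and MT-CYB (0.08; -0.035 to 0.19); the causes were not tested. Of 144 named genes 124 kept their sign and side of the threshold under all alternatives run for them, 18 changed side and 5 changed sign. Of 38 lists 4 medians changed sign and 16 had a count moved by over 1.5 times.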
